A study of Homo sapiens with 12 samples.

Results

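Genes of RNA sensing and the interferon response were followed in HCT116 cells, a line from a human colorectal carcinoma that keeps p53, after knockdown of the transcription factor RFX7 and after activation of p53. The set holds 52 genes chosen by name: 11 sensors of foreign RNA or DNA, 20 signalling and modifier factors and 21 effectors. ADAR, which edits double-stranded RNA and keeps it from a sensor, is counted in the sensor list. The authors' deposited tables listed 47 of them among 23195 genes, and 38 of the 47 had a mean normalized count of at least 20 over all libraries, the level from which counts and medians are given below. The genes nearest to that level were BST2 with a mean of 25.7 counts and IFI27 with 18.6. By role, 10 sensors, 20 signalling factors and 17 effectors were listed, of which 7, 19 and 12 reached that level.

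The study sequenced polyA RNA, from 500 ng of total RNA, in 12 libraries that fall into 4 groups of 3: control siRNA (siControl) with the solvent DMSO, siControl with Nutlin-3a, siRFX7 with DMSO and siRFX7 with Nutlin-3a. Nutlin-3a, used at 10 µM for 24 h, blocks the binding of MDM2 to p53 and so stabilizes p53. All 4 groups carry a transfected siRNA, so that responses common to both siRNAs, or to transfection itself, are in every group. The number and sequence of the siRNAs against RFX7 are not given in the sources used here, and untransfected cells were not analysed here. The labels do not say whether replicates were separate cultures, so the p-values measure only the spread between these libraries.

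RIG-I (gene DDX58) and MDA5 (IFIH1) bind double-stranded RNA in the cytoplasm and signal through MAVS to IRF3 and IRF7, which switch on interferon genes. Secreted interferon binds receptors whose kinases JAK1 and TYK2 activate a complex that holds STAT2 and IRF9. That complex binds the interferon-stimulated response element, a pair of GAAA blocks, in promoters of genes such as the IFIT family, ISG15 and BST2, whose products block viral entry, translation or release. Synthetic double-stranded RNAs, siRNAs included, can trigger the sensors, which is why such genes serve as a check in knockdown experiments.

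The promoter windows below show that element in some of the genes described below that carry it, with the bases that match it in capitals. Windows of others that carry it, such as IFIT3, IFITM3 and SAMD9, are not shown. The motif searched was the block GAAA, any 2 bases and GAAA again, on either strand, so that on the other strand it reads TTTC, any 2 bases and TTTC. Each window has 30 bases, is written 5′ to 3′ on the gene's strand and comes from RefSeq promoters (250 bases before to 50 after the annotated start) on GRCh38.p14. PARP9 and DTX3L lie head to head on chromosome 3, and the same stretch of DNA, read on opposite strands, holds the match in both of their promoters.
IFIH1 (chr2:162318821-162318850, minus strand): aattcgcTTTCCTTTTCTGTTTCccgcggt
EIF2AK2 (chr2:37156967-37156996, minus strand): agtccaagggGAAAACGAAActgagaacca
OAS3 (chr12:112938321-112938350, plus strand): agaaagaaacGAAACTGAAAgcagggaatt
DDX60 (chr4:168318821-168318850, minus strand): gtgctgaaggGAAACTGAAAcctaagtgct
ISG15 (chr1:1013377-1013406, plus strand): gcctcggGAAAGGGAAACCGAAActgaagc
TRIM21 (chr11:4393663-4393692, minus strand): ctgagcgGAAACTGAAAGTGAAAtagggag
DTX3L (chr3:122564322-122564351, plus strand): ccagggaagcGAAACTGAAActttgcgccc
PARP9 (chr3:122564322-122564351, minus strand): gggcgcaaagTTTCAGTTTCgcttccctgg
PLSCR1 (chr3:146544667-146544696, minus strand): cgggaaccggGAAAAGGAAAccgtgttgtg
IFI6 (chr1:27672329-27672358, minus strand): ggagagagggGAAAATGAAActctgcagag
IFIT1 (chr10:89392504-89392533, plus strand): tagTTTCACTTTCcccTTTCGGTTTCccta
IFIT5 (chr10:89414547-89414576, plus strand): agTTTCGATTTCttaagTTTCAGTTTCtga
BST2 (chr19:17405738-17405767, minus strand): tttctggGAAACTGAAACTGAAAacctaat

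A promoter was found for 41 of the 52 genes, and 25 of these (60.98%) held this paired motif on either strand, beside 1195 of 27305 genes (4.376%) in the whole promoter table. By role the match was in 4 of 8 sensors, 7 of 15 signalling factors and 14 of 18 effectors. TTCNNNGAA, a separate element bound by STAT dimers, was in 11 of the 41 (26.83%) and in 9.376% of all genes. The 2 motifs were searched separately and can overlap. The interferon-stimulated genes of this set are known for the paired motif, so the shares describe the set and not a response in these libraries. Windows from genes that rose and from genes that fell, such as PLSCR1 and IFIT5, both carried it. Promoters were found without a match for DDX58, ADAR, STAT2, IRF1, IRF5, UBE2L6, HERC6, TRIM25, SP100, IFI35 and CMPK2, among the genes of at least 20 counts. No promoter entry was used for DHX58, OAS2, OASL, IRF2, IRF3, IRF7, USP18, PML, IFIT2, IFITM2 and MX2.

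RFX7 fell with its siRNA, and known p53 targets rose with Nutlin-3a. Group averages of the recovered library depth ran from 26640653 to 27273402 counts. RFX7 itself (ENSG00000181827, chr15:56087280-56243266, minus strand, GENCODE 29 annotation) had mean normalized counts of 944 and 185 in DMSO under siControl and siRFX7, and of 1332 and 302 in Nutlin-3a. The authors' deposited tables gave RFX7 a log2 fold change of -2.35 ± 0.10 (standard error, SE) in DMSO and -2.14 ± 0.09 in Nutlin-3a. The p53 targets MDM2 and CDKN1A rose with Nutlin-3a by 3.99 and 4.46 on the log2 scale under siControl, in the same tables. Both also moved with the siRNA: CDKN1A went from 5493 to 13389 counts in DMSO, and the authors' deposited tables gave siRFX7 values of 1.29 ± 0.10 in DMSO and 0.35 ± 0.09 in Nutlin-3a for CDKN1A, and of 0.49 ± 0.06 and -0.21 ± 0.06 for MDM2, all called. The part of this in the results of the set was not tested. All 7 epithelial markers were listed, with EPCAM at 6019 to 9303 counts and VIL1 at 3.67 to 17.5. With siRFX7, by the authors' deposited tables, KRT18 fell in both treatments (-0.41 and -0.45), CDH1 rose in both (0.16 and 0.26), KRT8 fell in Nutlin-3a (-0.32), KRT19 rose in DMSO and fell in Nutlin-3a (0.34 and -0.33), VIL1 rose in Nutlin-3a (1.87), and EPCAM and CDX2 were not called. Of 6 leukocyte markers PTPRC, CD3E and CD68 were not listed and ITGAM stood at 5.34 to 31.0 counts. Of 5 fibroblast markers COL1A1 stood at 349 to 515 counts and, per the authors' deposited tables, rose under siRFX7 by 0.36 ± 0.11 in DMSO and 0.52 ± 0.12 in Nutlin-3a. PDGFRB stood at 7.03 counts in siControl DMSO and 21.2 in siRFX7 DMSO, and COL1A2, COL3A1 and DCN were not listed in the siRFX7 comparisons.

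Knockdown of RFX7 went with higher RNA of many genes of the set. In DMSO, 24 of the 46 listed genes rose and 4 fell in the authors' deposited table (DESeq2, adjusted p below 0.05), while 13.5% of all listed genes rose and 15.5% fell. Among the 38 genes of at least 20 counts 21 rose and 4 fell, beside 16.3% and 19.8% of all genes at that level, and the median log2 fold change was 0.33, beside -0.02 over all those genes. In Nutlin-3a, 16 of the 45 listed genes rose and 4 fell in the authors' deposited table, beside 15.0% and 13.6% of all listed genes. All 20 of those were at 20 counts or more, where 18.0% of all genes rose and 16.6% fell, with a median of 0.23 for the set and 0.00 for all genes. The sizes were mostly small: with a minimum absolute log2 fold change of 0.58 besides, 12 listed genes rose and none fell in DMSO, beside 5.21% and 2.51% of all listed genes, and 7 rose and 1 fell in Nutlin-3a, beside 4.13% and 3.51%. The 12 include OAS1, IFI16 and MX1, which lie below 20 counts, with means of 5.78, 3.54 and 13.4.

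The siRFX7 comparisons in DMSO and in Nutlin-3a share no library. Their tests use the same dispersion (modelled spread between libraries) for each gene, so they are not fully independent. In both, 14 genes of the set rose, all of at least 20 counts: 14 of 45 beside 8.20% of all listed genes, and 14 of 38 beside 9.99% of genes at that level. They were the sensors IFIH1, EIF2AK2 and OAS3, the signalling and modifier factors PARP9, DTX3L, TRIM21, UBE2L6 and PML, and the effectors IFI6, IFIT1, IFIT3, IFITM2, IFITM3 and BST2. Only STAT2, PLSCR1 and IFIT5 fell in both, 3 of 45 beside 8.34% of all listed genes and 3 of 38 beside 10.4%, and no gene was called in opposite directions. The sign of the log2 fold change was shared by 30 of the 38, and by 11313 of 15470 genes of at least 20 counts.

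**Figure D1:**
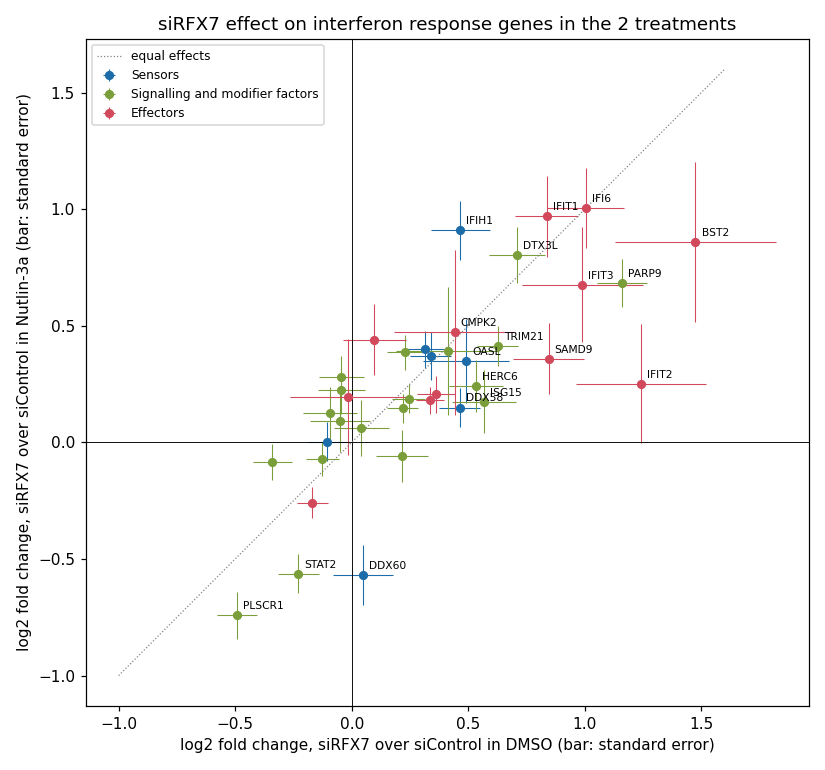
Log2 fold change of siRFX7 over siControl in DMSO (x axis) against the same in Nutlin-3a (y axis) for the 38 genes of at least 20 normalized counts, with bars for the standard errors, colours for the roles and a dotted line of equal effects. In 25 of the 38 both values lie above 0. BST2, PARP9, IFI6, IFIT1 and IFIT3 are among those far to the upper right, and PLSCR1 and STAT2 lie at the lower left.

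The 3 roles did not give the same counts. In DMSO, 5 of 7 sensors rose and none fell (median log2 fold change 0.34), 8 of 19 signalling factors rose and 3 fell (median 0.22), and 8 of 12 effectors rose and 1 fell (median 0.64), in the authors' deposited table. With Nutlin-3a, the authors' deposited table held 3 risen and 1 fallen sensor (median 0.35), 6 and 2 signalling factors (median 0.17) and 7 and 1 effectors (median 0.40). The medians were thus above that of all genes for each role under both treatments, and highest for the effectors. No test of the difference between roles was made. For the mean siRFX7 effect over both treatments (z test adjusted by Benjamini-Hochberg over 19393 genes), 25 of the 45 listed genes rose and 5 fell, beside 20.1% and 19.6% of all listed genes. By the same z test 22 of the 38 rose and 5 fell, beside 23.3% and 24.0% of all genes of at least 20 counts, and the median was 0.29.

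**Figure D2:**
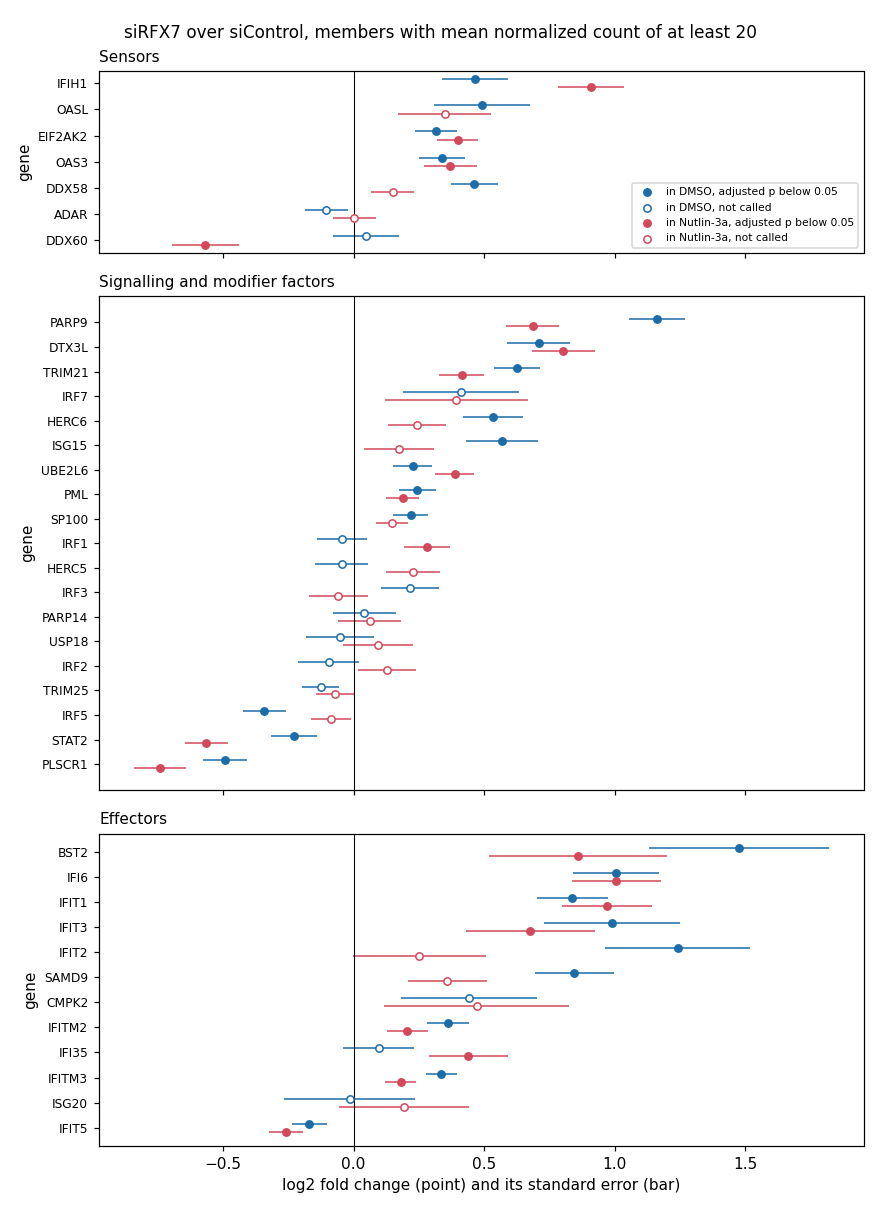
Log2 fold change of siRFX7 over siControl in DMSO (blue) and in Nutlin-3a (red) for the 38 genes of at least 20 normalized counts, by role, with bars for the standard errors and filled points for an adjusted p below 0.05. Most points of the effectors lie right of 0, from IFIT5 at -0.17 in DMSO up to BST2 at 1.47, while signalling factors lie on both sides.

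Among the 7 sensors of at least 20 counts, the gene of MDA5 had the largest siRFX7 value in Nutlin-3a. IFIH1 (ENSG00000115267, chr2:162267079-162318703, minus strand) had mean normalized counts, recovered from the authors' deposited tables with a model SE over 3 libraries, of 251 ± 16.1 with DMSO and 235 ± 15.3 with Nutlin-3a under siControl, and of 347 ± 21.0 with DMSO and 442 ± 26.3 with Nutlin-3a under siRFX7. That SE rests on a dispersion (modelled spread between libraries) shared by all groups for each gene, so it does not measure the spread within a single group. Both siRFX7 means of IFIH1 were above both siControl means by more than the summed errors. The authors' deposited tables gave 0.47 ± 0.13 in DMSO (DESeq2 adjusted p = 0.00156) and 0.91 ± 0.13 in Nutlin-3a (adjusted p = 2.24e-11). The difference between these values, 0.44 ± 0.18, did not pass its own test (adjusted p = 0.14).

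DDX58, which encodes RIG-I, stood at 309 ± 14.1, 513 ± 20.8, 426 ± 17.7 and 569 ± 22.6 counts in the same order of groups. It rose under siRFX7 in DMSO by 0.46 ± 0.09 (adjusted p = 2.49e-06) in the authors' deposited table, and the value in Nutlin-3a was 0.15 ± 0.08 (adjusted p = 0.171). The difference between these, -0.31 ± 0.12, did not pass its z test either (adjusted p = 0.111). DDX58 was therefore lowest in siControl DMSO and highest in siRFX7 Nutlin-3a, with both Nutlin-3a groups above both DMSO groups.

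EIF2AK2 encodes PKR, a kinase that stops translation when it binds double-stranded RNA. Its means were 2350 ± 91.4, 2173 ± 84.9, 2924 ± 112 and 2865 ± 111 counts, so that the siRNA separated the groups and Nutlin-3a did not. The authors' deposited tables gave 0.32 ± 0.08 in DMSO (DESeq2 adjusted p = 0.000473) and 0.40 ± 0.08 in Nutlin-3a (adjusted p = 5.54e-06). OAS3, an enzyme that makes oligoadenylates when it binds double-stranded RNA, stood at 1546 ± 67.9, 391 ± 19.9, 1955 ± 84.7 and 506 ± 24.7 counts. Its siRFX7 values were 0.34 ± 0.09 and 0.37 ± 0.10 in the authors' deposited tables (adjusted p = 0.000957 and 0.0017), on top of a far larger fall with Nutlin-3a. OASL, a relative without that enzyme activity, rose in DMSO by 0.49 ± 0.18 (adjusted p = 0.0284), and its value was 0.35 ± 0.18 (adjusted p = 0.138) in Nutlin-3a by the authors' deposited tables.

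DDX60, a helicase linked to RIG-I signalling, went the other way in Nutlin-3a. It stood at 194 ± 12.3, 246 ± 14.9, 201 ± 12.4 and 166 ± 10.9 counts, the lowest value being in the doubly treated group. The authors' deposited tables gave 0.05 ± 0.13 for siRFX7 in DMSO (adjusted p = 0.838) and -0.57 ± 0.13 in Nutlin-3a (adjusted p = 9.13e-05). ADAR edits adenosine to inosine in double-stranded RNA and so keeps it from MDA5. It was the most abundant gene of the sensor list per kilobase of exon and was called in none of the 4 comparisons, with 10558 to 11351 counts.

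The other 4 sensor genes carried too few counts for fold changes. OAS1 was at 0.358 ± 0.346, 4.38, 6.95 and 11.4 counts, and was called higher with siRFX7 in DMSO (adjusted p = 0.00656) and with Nutlin-3a under siControl (adjusted p = 0.0198) in the authors' deposited tables. IFI16, a DNA sensor, was at 0.665, 3.75, 6.04 and 3.71 counts and was called higher with siRFX7 in DMSO (adjusted p = 0.0445, authors' deposited table). DHX58, which encodes the RIG-I relative LGP2, ranged from 5.41 to 15.8 counts with no call, and OAS2 was not listed.

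The pair PARP9 and DTX3L, a mono-ADP-ribosyltransferase and the ubiquitin ligase it forms a complex with, had the largest siRFX7 values among the signalling factors. PARP9 (ENSG00000138496, chr3:122527924-122564577, minus strand) stood at 227 ± 12.8, 330 ± 17.3, 508 ± 24.6 and 531 ± 25.7 counts, in the order used for IFIH1. It was 2.24-fold higher with siRFX7 in DMSO, a log2 fold change of 1.16 ± 0.11 (DESeq2 adjusted p = 2.87e-25), and 0.68 ± 0.10 higher in Nutlin-3a (adjusted p = 6.99e-10), by the authors' deposited tables. DTX3L (ENSG00000163840, chr3:122564238-122575203, plus strand) stood at 353 ± 21.3, 308 ± 18.9, 577 ± 32.8 and 538 ± 30.9 counts. Its values were 0.71 ± 0.12 and 0.80 ± 0.12 in the authors' deposited tables (adjusted p = 5.39e-08 and 8.72e-10). In both genes each siRFX7 mean exceeded each siControl mean. The exons of the pair overlap on opposite strands over 2.43% of PARP9 and 3.70% of DTX3L, and the handling of strand in the counting is not given in the sources used here.

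TRIM21, an Fc receptor and ubiquitin ligase of the cytoplasm, rose with both the siRNA and Nutlin-3a. It stood at 385 ± 17.7, 609 ± 25.7, 595 ± 25.0 and 811 ± 32.9 counts, the siControl Nutlin-3a and siRFX7 DMSO means lying within their errors. The siRFX7 values were 0.63 ± 0.09 and 0.41 ± 0.08 in the authors' deposited tables (adjusted p = 8.38e-11 and 1.12e-05). UBE2L6, the conjugating enzyme for ISG15, stood at 527 ± 19.8, 499 ± 19.1, 617 ± 22.2 and 652 ± 23.5 counts. The authors' deposited tables gave it 0.23 ± 0.08 (adjusted p = 0.0117) and 0.39 ± 0.08 (adjusted p = 4.2e-06). PML, the organizer of PML nuclear bodies, rose by the smaller 0.24 ± 0.07 and 0.19 ± 0.06 (adjusted p = 0.00253 and 0.0121, authors' deposited tables).

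ISG15, the ubiquitin-like protein that UBE2L6 and HERC5 attach to others, stood at 1326 ± 89.4, 3926 ± 260, 1965 ± 131 and 4428 ± 293 counts. With siRFX7 it rose in DMSO by 0.57 ± 0.14 (adjusted p = 0.000267), and its value in Nutlin-3a was 0.17 ± 0.13 (adjusted p = 0.374), in the authors' deposited tables. HERC6, HERC5, TRIM25 and USP18 were uneven. HERC6 rose in DMSO by 0.53 ± 0.11 (adjusted p = 3.17e-05, authors' deposited table). HERC5, TRIM25 and USP18, the enzyme that removes ISG15, were called in neither siRFX7 comparison. SP100, a partner of PML, rose in DMSO by 0.22 ± 0.07 (adjusted p = 0.00579, authors' deposited table). PARP14 was called in no comparison.

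STAT2, the subunit that carries the activation domain of the interferon-induced complex, fell. It stood at 634 ± 26.8, 1065 ± 42.3, 541 ± 23.3 and 721 ± 29.9 counts. The fall was -0.23 ± 0.09 in DMSO (adjusted p = 0.0322) and -0.56 ± 0.08 in Nutlin-3a (adjusted p = 2.82e-10), by the authors' deposited tables. The call in DMSO was lost when fold changes were shifted to equal group totals, where it was -0.17 (adjusted p = 0.131). PLSCR1, a phospholipid scramblase with antiviral activity, stood at 701 ± 28.3, 359 ± 16.4, 498 ± 21.1 and 215 ± 11.2 counts. The siRNA values of PLSCR1 were -0.49 ± 0.08 and -0.74 ± 0.10 in the authors' deposited tables (adjusted p = 8.83e-08 and 4.37e-12), and the doubly treated group was the lowest of the 4 by more than its errors.

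The interferon regulatory factors showed no common direction. IRF5 fell in DMSO by -0.34 ± 0.08 (adjusted p = 0.000343) and IRF1 rose in Nutlin-3a by 0.28 ± 0.09 (adjusted p = 0.00843), each in 1 of the siRFX7 comparisons of the authors' deposited tables. IRF2, IRF3 and IRF7 were called in neither, with IRF7 at 65.8, 28.5, 87.5 and 37.4 counts. IRF9, the DNA-binding partner of STAT2, was at 6.34 to 8.84 counts in all groups with no call. Its exons overlap those of AL136295.5 on the same strand over 48.4% of their length, so that its count is uncertain.

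Among the effectors IFI6, a small membrane protein of the endoplasmic reticulum and mitochondria, had nearly equal siRFX7 values under both treatments. IFI6 (ENSG00000126709, chr1:27666061-27672218, minus strand) stood at 180 ± 15.1, 140.5 ± 12.3, 361 ± 28.2 and 282 ± 22.6 counts, again in the order used for IFIH1. The authors' deposited tables gave 1.0 ± 0.17 and 1.01 ± 0.17 (DESeq2 adjusted p = 2.54e-08 and 6.89e-08). IFIT1 (ENSG00000185745, chr10:89392546-89406486, plus strand), which binds viral RNA caps, stood at 137 ± 9.70, 55.2 ± 5.15, 245 ± 15.2 and 108 ± 8.14 counts. Its values were 0.84 ± 0.14 and 0.97 ± 0.17 in the authors' deposited tables (adjusted p = 1.44e-08 and 3.29e-07). Both genes thus had higher siRFX7 means within each treatment, while the siRFX7 Nutlin-3a mean of IFIT1 lay below its siControl DMSO mean.

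The other IFIT genes split. IFIT3 stood at 28.4 ± 3.95, 39.0 ± 4.98, 56.4 ± 6.49 and 62.2 ± 7.11 counts, with siRFX7 values of 0.99 ± 0.26 and 0.68 ± 0.25 in the authors' deposited tables (adjusted p = 0.000988 and 0.0252). IFIT2 stood at 24.7 ± 3.70, 48.1 ± 6.09, 58.3 ± 7.0 and 57.3 ± 6.98 counts, siControl DMSO alone being low. It rose in DMSO by 1.24 ± 0.28 (adjusted p = 7.12e-05), and its value in Nutlin-3a was 0.25 ± 0.25 (adjusted p = 0.517), in the authors' deposited tables. IFIT5 fell slightly, from 856 ± 27.4 to 761 ± 24.7 counts in DMSO and from 963 ± 30.2 to 805 ± 26.1 in Nutlin-3a. The authors' deposited tables gave IFIT5 -0.17 ± 0.07 (adjusted p = 0.0367) and -0.26 ± 0.07 (adjusted p = 0.000532), the first of which was lost at equal group totals (adjusted p = 0.205).

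BST2, or tetherin, which holds budding virus at the cell surface, had the largest siRFX7 value of the 38 genes in DMSO. It stood at only 14.4 ± 2.73, 17.2 ± 3.11, 39.9 ± 5.76 and 31.3 ± 4.81 counts, the siRFX7 means exceeding the siControl means. The authors' deposited tables gave it 1.47 ± 0.34 (adjusted p = 0.000153) and 0.86 ± 0.34 (adjusted p = 0.043). IFITM2 and IFITM3 block fusion of viruses in endosomes. IFITM2 stood at 1158 ± 46.4, 1429 ± 56.3, 1487 ± 58.1 and 1648 ± 64.3 counts, and IFITM3 at 3731 ± 110.4, 6013 ± 174, 4710 ± 138 and 6811 ± 197. They rose by 0.36 ± 0.08 and 0.34 ± 0.06 in DMSO (adjusted p = 7.47e-05 and 3.28e-07) and by 0.21 ± 0.08 and 0.18 ± 0.06 in Nutlin-3a (adjusted p = 0.0373 and 0.0112), by the authors' deposited tables. IFITM1, IFITM2 and IFITM3 are close paralogs, and 22.75% of the exon length of IFITM2 and 21.29% of that of IFITM3 overlap other genes, so their split of reads is uncertain.

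SAMD9, a restriction factor of poxviruses, rose in DMSO by 0.84 ± 0.15 (adjusted p = 3.66e-07) and had 0.36 ± 0.15 in Nutlin-3a (adjusted p = 0.0604), by the authors' deposited tables. IFI35 rose in Nutlin-3a by 0.44 ± 0.15 (adjusted p = 0.0169, authors' deposited table). CMPK2, a mitochondrial nucleotide kinase, and the exonuclease ISG20 were called in neither siRFX7 comparison. MX1, the classical influenza-restricting GTPase, was at 6.34 ± 1.90, 9.52 ± 2.57, 20.6 ± 4.71 and 17.1 ± 4.08 counts and was called higher with siRFX7 in DMSO (adjusted p = 0.00859, authors' deposited table). IFI44 was at 1.02 to 7.62 counts, IFITM1 at 4.02 to 8.22 and IFI27 at 13.9 to 21.7, none called in any of the 4 comparisons. RSAD2, which encodes viperin, had a mean of 1.95 counts and was listed in the Nutlin-3a comparisons alone, where it was called lower under siControl (adjusted p = 0.0144, authors' deposited table). IFI44L, MX2, SAMD9L and XAF1 were not listed.

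**Figure D3:**
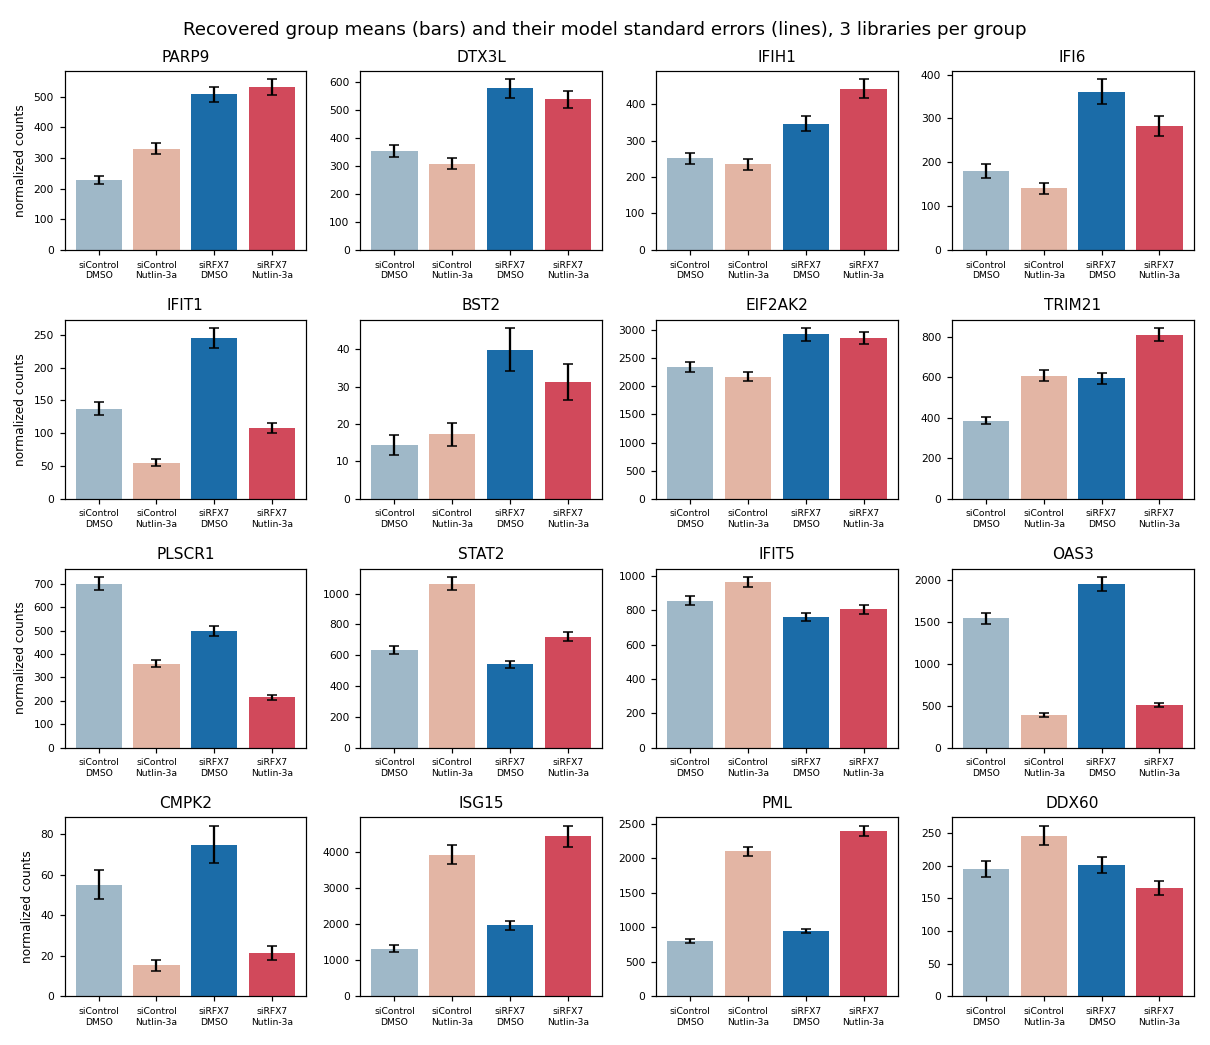
Recovered mean normalized counts (bars, from 0) with model standard errors (lines) in the 4 groups of 3 libraries for 16 genes of the set. For PARP9, DTX3L, IFIH1, IFI6, BST2 and EIF2AK2 both siRFX7 bars exceed both siControl bars, OAS3 and CMPK2 are low in both Nutlin-3a groups, and ISG15 and PML are high in both.

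Promoter windows and calls were set side by side. Of the 19 genes of at least 20 counts with a match to the paired GAAA motif, 13 rose and 2 fell with siRFX7 in DMSO, and 11 rose and 3 fell in Nutlin-3a. Of the 11 without a match in the promoters found, 4 rose and 2 fell in DMSO, and 3 rose and 1 fell in Nutlin-3a. Among all genes of at least 20 counts, 16.3% rose and 19.8% fell in DMSO, and 18.0% and 16.6% in Nutlin-3a. These counts come from the calls of the authors' deposited tables and are a description, with no test.

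Other genes of the pathway were counted from a separate list of ligands, receptors, signal transducers and inhibitors. Of 11 interferons and interferon-induced chemokines, IFNE alone was listed, at 2.0, 5.08, 7.91 and 4.73 counts with no call, and IFNB1, IFNA1, IFNK, IFNG, IFNL1, IFNL2, IFNL3, CXCL10, CXCL11 and CCL5 were not listed. Of 7 listed receptors 1 rose and 1 fell with siRFX7 in DMSO, and 4 rose in Nutlin-3a, by the authors' deposited tables. Of 14 signal transducers 3 rose and 1 fell in DMSO, and 2 rose and 4 fell in Nutlin-3a. Of 14 inhibitors and nucleases of at least 20 counts 4 rose and 2 fell in DMSO, and 6 rose and 2 fell in Nutlin-3a. These counts stand beside 16.3% risen and 19.8% fallen among all genes of at least 20 counts in DMSO, and 18.0% and 16.6% in Nutlin-3a, and several of the shares lie near those. Over these 35 pathway genes the median siRFX7 value was -0.02 in DMSO and 0.11 in Nutlin-3a, beside 0.33 and 0.23 for the 38 genes of the set.

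Some of these genes were called in both siRFX7 comparisons. TLR3, the endosomal receptor of double-stranded RNA, stood at 45.7 ± 4.48, 328 ± 18.9, 115 ± 8.18 and 514 ± 27.9 counts, with 1.33 ± 0.17 and 0.65 ± 0.11 in the authors' deposited tables (adjusted p = 7.96e-13 and 2.07e-07). SOCS1, an interferon-induced inhibitor of JAK kinases, stood at 84.4 ± 7.61, 97.6 ± 8.53, 133 ± 10.8 and 177 ± 13.8 counts, with 0.65 ± 0.17 and 0.86 ± 0.17 (adjusted p = 0.00118 and 4.36e-06, authors' deposited tables). TYK2, the kinase of the type I interferon receptor, fell by -0.55 ± 0.06 and -0.63 ± 0.06 (adjusted p = 9.26e-21 and 7.52e-25, authors' deposited tables). The adaptor MYD88 and the nuclease SAMHD1 rose in both, and the phosphatase PTPN6 fell in both. TLR3 and IFIH1 were thus higher in both comparisons, and TYK2 and STAT2 were lower. The STAT2 call in DMSO was lost at equal group totals. Other genes of interferon signalling went in both directions. JAK1, IFNAR1 and IFNAR2 rose in Nutlin-3a by 0.23, 0.31 and 0.31 (authors' deposited table), and JAK2 was called in neither siRFX7 comparison. The exons of IFNAR2 overlap those of AP000295.1 on the same strand over 44.17% of their length, so that its count is uncertain. The signal transducers MAVS, TMEM173 and RELA fell in Nutlin-3a by -0.18, -0.28 and -0.16 (authors' deposited table). The receptor IFNLR1 fell in DMSO by -0.31 (authors' deposited table). Since the siRNA and the knockdown come together in every siRFX7 library, an effect of the siRNA as an RNA and an effect of less RFX7 cannot be told apart.

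Nutlin-3a moved the set in no single direction. Under siControl 16 of 47 listed genes rose and 8 fell in the authors' deposited table, beside 22.0% and 21.2% of all listed genes, and of the 38 genes of at least 20 counts 15 rose and 7 fell, beside 30.5% and 29.4%. Under siRFX7 11 of 47 rose and 6 fell, beside 21.7% and 19.7%, and of the 38 genes the same 11 and 6 were called, beside 30.3% and 26.9%. The medians over the 38 were 0.19 and 0.07, beside 0.02 and 0.01 for all genes of at least 20 counts. At 20 counts or more the share that rose was above that of all genes under siControl and near it under siRFX7, and the share that fell was below it under both. Under both siRNAs 9 genes rose (DDX58, STAT2, IRF1, IRF5, ISG15, TRIM21, SP100, PML and IFITM3), 6 fell under both (OAS3, IRF7, PLSCR1, IFI35, IFIT1 and CMPK2), and none was called in opposite directions. The Nutlin-3a comparisons share no library with each other, but each shares a group with both siRFX7 comparisons.

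Among the 38 genes, ISG15 and PML had the largest rises with Nutlin-3a. ISG15 rose by 1.57 ± 0.14 under siControl and 1.17 ± 0.14 under siRFX7 (adjusted p = 2.21e-29 and 5.42e-17), in the authors' deposited tables. PML went from 801 ± 27.7 to 2102 ± 64.6 counts under siControl and from 949 ± 31.7 to 2394 ± 72.7 under siRFX7, that is by 1.39 ± 0.07 and 1.33 ± 0.07 in the authors' deposited tables (adjusted p = 9.51e-95 and 1.36e-91). STAT2, which was lower with siRFX7, rose with Nutlin-3a by 0.75 ± 0.08 and 0.41 ± 0.09 (adjusted p = 4.09e-18 and 8.01e-06, authors' deposited tables). Both Nutlin-3a means of each of these 3 genes lay above both DMSO means.

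Among the same genes OAS3 had the largest fall with Nutlin-3a. It fell by -1.98 ± 0.10 under siControl and -1.95 ± 0.09 under siRFX7 (adjusted p = 1.89e-91 and 9.54e-94) in the authors' deposited tables. CMPK2 stood at 55.1 ± 7.21, 15.3 ± 2.79, 74.8 ± 9.25 and 21.2 ± 3.48 counts and fell by -1.85 ± 0.32 and -1.82 ± 0.30 (adjusted p = 5.77e-08 and 5.27e-09, authors' deposited tables). IFIT1 fell by -1.31 ± 0.17 and -1.18 ± 0.14, IRF7 by -1.21 ± 0.26 and -1.23 ± 0.24 and PLSCR1 by -0.96 ± 0.09 and -1.21 ± 0.10, all called in the authors' deposited tables. Genes that carry the promoter element moved both up (ISG15, TRIM21) and down (OAS3, IFIT1, PLSCR1) with Nutlin-3a.

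**Figure D4:**
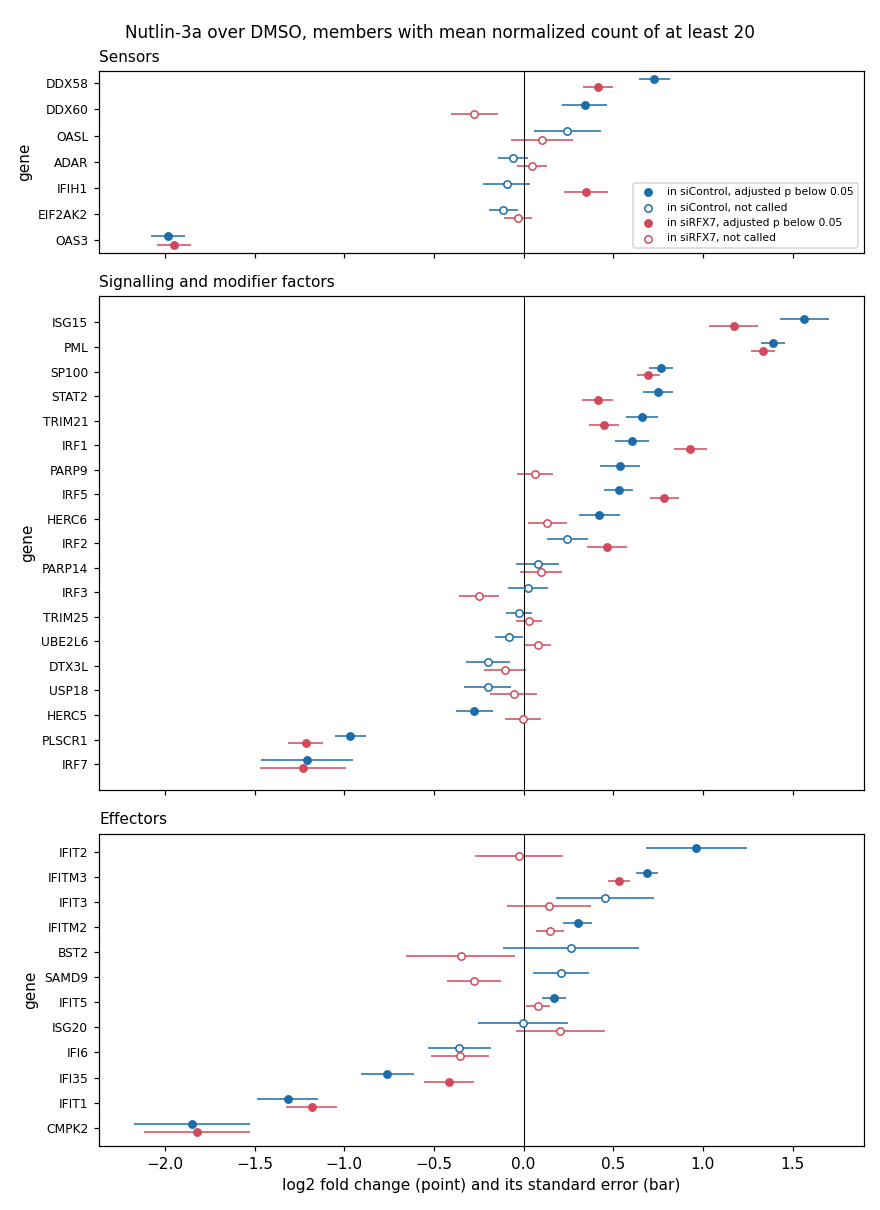
Log2 fold change of Nutlin-3a over DMSO under siControl (blue) and siRFX7 (red) for the 38 genes of at least 20 normalized counts, by role, with bars for the standard errors and filled points for an adjusted p below 0.05. OAS3 and CMPK2 lie lowest, between -1.98 and -1.82, and ISG15 and PML above 1, and the points of each gene lie close together except for genes such as DDX60, IFIT2 and PARP9.

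The Nutlin-3a effect differed between the siRNAs in 2 of the 47 listed genes and in the same number of the 38 (z test of the difference, Benjamini-Hochberg adjusted over 23195 genes), none with a higher and 2 with a lower value under siRFX7. The background was 3.28% higher and 2.92% lower over all genes, and 4.89% and 4.16% at 20 counts or more. DDX60 had 0.34 ± 0.13 under siControl and -0.27 ± 0.13 under siRFX7 in the authors' deposited tables, a difference of -0.61 ± 0.18 (z test, adjusted p = 0.0161). PARP9 had 0.54 ± 0.11 and 0.06 ± 0.10 in the authors' deposited tables, a difference of -0.48 ± 0.15 (z test, adjusted p = 0.0269), its siRFX7 DMSO mean being already at the level of the siRFX7 Nutlin-3a mean. At an unadjusted p below 0.05, 11 of the 47 differed, 3 with a higher and 8 with a lower value, beside 8.46% and 7.45% of all listed genes.

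Levels between genes were compared per kilobase of GENCODE 29 exon. In siControl DMSO the most abundant were IFITM3 at 2768 normalized counts per kilobase, ISG15 at 1410, ADAR at 1171, IFITM2 at 751 and TRIM25 at 690. The least abundant of the 38 were IFIT2 at 6.01, ISG20 at 7.66, IFIT3 at 10.8, and CMPK2 and BST2 at 12.8 each, the last pair being the same within their errors. Effectors thus stood at both ends of the order. IFI6, with the largest siRFX7 value of the 38 in Nutlin-3a, stood 10th at 208 counts per kilobase, and BST2, with the largest in DMSO, stood 34th. Summed over each role, recovered counts in siControl DMSO and siRFX7 DMSO were 16085 and 16539 for sensors, 16264 and 17316 for signalling factors, and 6662 and 8482 for effectors. A single gene made up much of each sum. In the same order of groups, ADAR gave 11351 and 10558 of the sensor counts and TRIM25 6553 and 6005 of the signalling counts. IFITM3 gave 3731 and 4710 of the effector counts. In bulk RNA a change in every cell and a change in a few cells cannot be told apart.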

How the data were processed

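PolyA RNA was sequenced in 12 libraries of HCT116 cells. The submitters' processing notes name Trimmomatic 0.39, cutadapt 2.10, featureCounts 1.6.5, DESeq2 1.20.0 and the build hg38. The aligner, annotation and strand setting are not given in the sources used here. The deposited values are 4 result tables: the mean normalized count is a signal per the file headers, that is, counts scaled by size factors, fold changes and standard errors are log2 values by the authors, the statistic is a score in the deposited tables, and p-values and adjusted p-values are the authors'. The adjusted p-value is Benjamini-Hochberg over the genes each deposited table lists. Values per library were not used here, so the planned edgeR fit on counts gave way to the authors' p-values, as the design allowed.

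From the tables, group means, size factors and model standard errors were recovered. The model standard errors use a single dispersion per gene for all groups. Read as siRFX7 over siControl, the 4 fold changes closed to 1.27e-14, and the other way to a median of 0.374. Mean siRFX7 effects and differences of Nutlin-3a effects were tested by z tests for a change in either direction, on the authors' standard errors. These errors share the dispersion of each gene, which the z tests did not take into account. A trial on simulated data has no outcome given here, and how these z tests behave on the real counts was not tested. Depth averaged 26640653 to 27273402 counts per library, at which the standard error of a log2 fold change had a median of 0.113 for the 38 genes in siRFX7 over siControl in DMSO. Gene models came from GENCODE 29, which matched 23164 of 23195 IDs.

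Genes and lists were chosen with earlier results of these data known. Full values were given for genes called in both siRFX7 comparisons, in the difference of Nutlin-3a effects, or among the 3 largest changes of a comparison, and for others where their role is described. Alternatives were a minimum fold, a stricter threshold, equal group totals, a median of 0, genes of at least 20 counts and genes in all tables. Python 3.11.15, pandas 2.3.3 and scipy 1.17.1 were used. The values of 1 pathway gene are not reported here.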

Additional observations from a re-analysis of the deposited data

Results flagged for a closer look

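With the cell type markers left out, the 2 siRNAs gave different Nutlin-3a effects in 7 of the named genes. The test was a z test of the difference adjusted over 23195 genes. The differences on the log2 scale, siRFX7 minus siControl, were -0.61 for DDX60, -0.48 for PARP9, -0.68 for TLR3, 0.33 for IFNAR1 and 0.52 for SOCS3. The label checks MDM2 and CDKN1A differed too, by -0.69 and -0.93. Outside those 7, the epithelial marker KRT19 also differed, by -0.67 (z test, adjusted p = 0.00021). TLR3, PARP9 and CDKN1A each rose with siRFX7 in DMSO, by 1.33, 1.16 and 1.29 in the authors' deposited tables, and each had a smaller Nutlin-3a effect under siRFX7. MDM2 and KRT19 also rose with siRFX7 in DMSO, by 0.49 and 0.34 in the authors' deposited table, and had a smaller Nutlin-3a effect under siRFX7. The difference equals the siRFX7 value in Nutlin-3a minus that in DMSO, so the 2 observations are not independent. Why the effects differ was not tested. DDX60, also with a lower Nutlin-3a effect under siRFX7, had 0.05 ± 0.13 for siRFX7 in DMSO (DESeq2 adjusted p = 0.838). IFNAR1 rose with Nutlin-3a under siRFX7 (0.45 ± 0.06) and had 0.12 ± 0.06 under siControl, and SOCS3 fell under siControl (-0.36 ± 0.09) and had 0.16 ± 0.09 under siRFX7, in the authors' deposited tables.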

How the results depend on the processing

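With a minimum absolute log2 fold change of 0.58, calls went from 28 to 12 for siRFX7 in DMSO, from 20 to 8 in Nutlin-3a, from 30 to 13 for the mean siRFX7 effect, from 17 to 10 for Nutlin-3a under siRFX7 and from 2 to 1 for the difference of Nutlin-3a effects. At an adjusted p below 0.01 the last count was 0 by the z test, with 11 at an unadjusted p below 0.05. Without genes whose exons overlap others and without IFITM1 to IFITM3 (chosen after seeing the data; 30 of 47 genes stay), calls were 18 for siRFX7 in DMSO (14 higher, 4 lower), 14 for Nutlin-3a under siControl and 1 for the difference. These counts fall by construction, with a higher bar or fewer genes. No result reversed under the alternatives run. Of 277 values of single genes, equal group totals ended 3 calls and added 9, and a median of 0 ended 2 and added 2; the scalings shifted fold changes by at most 0.06. No paired analysis was possible because the deposited tables hold no values per library; for the same reason leaving out each replicate was not run, and whether 1 library decides a call is not known here. At low counts depth limits OAS1, MX1, IFI44 and BST2.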
